A study of Mus musculus with 30 samples.

Results

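Whether the response of the mammary gland to loss of the type I interferon receptor depends on the Her2/Neu oncogene was read from 4 genotypes of mice. The measure is the interaction, the difference Her2/Neu+/IFNAR1-/- minus Her2/Neu+ less the difference IFNAR1-/- minus WT. Both differences are effects of receptor loss, the first with and the second without the oncogene. All 30 arrays of the series entered 1 fit, and the interaction was estimated for the 11463 genes whose probes were read on 50% or more of the arrays in each of the groups. A positive interaction means that receptor loss raised a gene more, or lowered it less, in glands with the oncogene.

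Type I interferons are antiviral cytokines that act through a cell surface receptor with the chains IFNAR1 and IFNAR2. Binding activates Janus kinases and STAT factors, which switch on the interferon-stimulated genes. Her2/Neu, also named Erbb2, is a receptor tyrosine kinase of the epidermal growth factor receptor family, and its overactivity drives mammary carcinomas in mice. Outside lactation the mammary gland is a tree of ducts within a fat pad, so whole-gland RNA holds much fat cell RNA.

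The samples were 9 Her2/Neu+/IFNAR1-/-, 6 Her2/Neu+, 8 IFNAR1-/- and 7 WT inguinal glands. All mice had the 129sv background and were 19 weeks old. Her2/Neu+ mice carry the oncogene, IFNAR1-/- mice lack the IFNAR1 chain, Her2/Neu+/IFNAR1-/- mice combine both and WT mice carry neither. The promoter of the oncogene, the sex of the mice and whether each sample came from its own mouse are not given in the sources used here, so p-values measure only the spread between these samples. Each gland was set against the same universal reference RNA on a 2-colour array, and every level below is the log2 ratio of gland over reference, which stops at 6. Each array held between 17485 and 20801 values, and precision is limited by how many arrays there are. The fat cell hormone gene Adipoq stood at the limit of 6 on all 30 arrays, while the luminal keratins Krt18 and Krt8 had medians of 0.77 and -0.47. In whole glands, fewer cells of a type and less RNA per cell cannot be told apart. On each array, between 2639 and 10385 values are exact copies of another value of that array. How these repeated values arose is not stated, and they are named below where they touch a result. Her2/Neu+ array 114 stood apart from the other 5 arrays of its group. Its mean of the B cell markers was 3.12, against -1.15 to 0.43 on those 5, and its mean of the plasma cell markers was 2.49, against -0.50 to 0.71. It was also the lowest Her2/Neu+ array for the means of glucocorticoid targets (-1.26), respiratory complex I (-1.20), complexes II to V (-1.38), fatty acid oxidation (-1.40), fat synthesis (-1.31) and luminal markers (-1.76). Values without this array are given beside those lists.

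Only 2 of the 11463 genes passed the test of the interaction (limma, Benjamini-Hochberg adjusted p under 0.05), which is 0.0174% of the genes. Tsc22d3 had a positive interaction and Flywch2 a negative one. At an unadjusted p under 0.05 there were 1103 genes, or 9.62%, of which 786 were positive (6.86%) and 317 negative (2.77%). That split depended on the scaling: it was 657 positive and 383 negative after median centring of the arrays, and 542 positive and 572 negative after quantile normalization. The median interaction over all genes was 0.18, against 0.13 and 0.05 under those scalings, and the median standard error (SE) was 0.53. Values of gene lists are therefore read against 0.18 and not against 0. Counts of list members at an unadjusted p under 0.05 are read against these 6.86% positive and 2.77% negative.

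The 2 receptor loss effects rest on separate arrays and showed hardly any relation across genes. Pearson's r was -0.015 and Spearman's rho -0.026 over 11463 genes, which are not independent replicates. The effects had opposite signs in 5952 genes, 51.9% of those tested. In 34.5% of the genes the estimate was above 0 with the oncogene and below 0 without it, and in 17.4% the reverse held. Few genes passed within each effect: 9 genes (0.0785%) with the oncogene and 3 (0.0262%) without it.

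**Figure D1:**
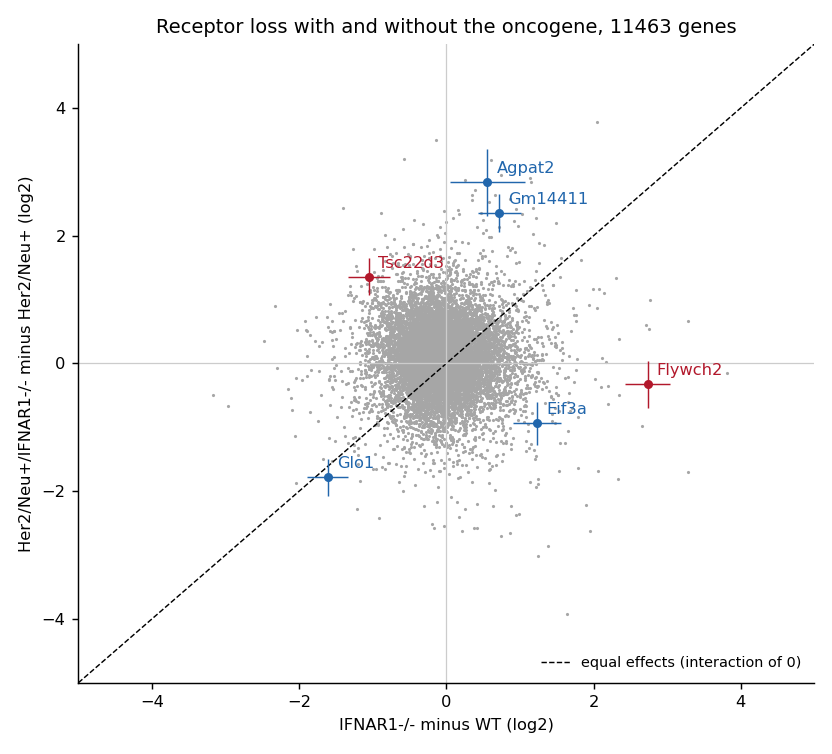
Each point is 1 of 11463 genes, with the effect of receptor loss in glands with the oncogene on the y axis and in glands without it on the x axis, both as log2 differences. Named genes carry SE bars, red for the 2 that passed the interaction test and blue for others. Tsc22d3 lies at 1.36 on the y axis and -1.05 on the x axis, far from the dashed line of equal effects, while Glo1 lies close to that line.

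Tsc22d3 encodes GILZ, a leucine zipper protein that glucocorticoids induce and that carries part of their anti-inflammatory action. The gene lies on chromosome X at 140539528 to 140600522 (GRCm38.p6) and is read by 1 probe. The lowest, median and highest log2 ratios were 1.52, 1.91 and 2.50 in Her2/Neu+/IFNAR1-/- glands, and -0.24, 0.47 and 1.67 in Her2/Neu+ glands. They were 0.57, 1.44 and 2.30 in IFNAR1-/- glands, and 1.87, 2.40 and 3.39 in WT glands. The level was thus high in WT glands, lower where either alteration was present alone, lowest with the oncogene alone, and between the IFNAR1-/- and WT levels where both were present. Of the 9 Her2/Neu+/IFNAR1-/- arrays, 8 lay above all 6 Her2/Neu+ arrays, and of the 8 IFNAR1-/- arrays, 6 lay below all 7 WT arrays. The mean was 1.99 ± 0.30 in Her2/Neu+/IFNAR1-/- (SD, n = 9) and 0.63 ± 0.81 in Her2/Neu+ glands (n = 6), and 1.45 ± 0.56 in IFNAR1-/- (n = 8) and 2.50 ± 0.50 in WT glands (n = 7).

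The interaction of Tsc22d3 was 2.41 ± 0.41 (SE) on the log2 scale, a 5.30-fold difference between the responses (limma adjusted p = 0.0230). The effect of receptor loss was 1.36 ± 0.29 with the oncogene (adjusted p = 0.0651) and -1.05 ± 0.29 without it (adjusted p = 0.453). Neither effect passed by itself, and the test of their difference did. Read along the other axis of the design, Tsc22d3 fell by 1.87 in Her2/Neu+ against WT glands (adjusted p = 0.00466), a contrast in which 15 genes (0.131%) passed. In Her2/Neu+/IFNAR1-/- against IFNAR1-/- glands, where 150 genes (1.31%) passed, its difference was 0.54 ± 0.27 (adjusted p = 0.279).

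The Tsc22d3 call depended on the fit and on a few arrays. With slide as a random block the interaction was 2.42 ± 0.46 and did not pass (adjusted p = 0.101). It also missed the threshold with array weights (adjusted p = 0.0620), with a variance trend (0.0539) and among the more variable genes by SD (0.261), and it passed in 12 of 20 alternatives. With the B cell mean as a covariate it passed (adjusted p = 0.0294). The lowest values were those of Her2/Neu+ arrays 114 and 119, at -0.24 and -0.05, and both are repeated values. These arrays lie on the last slide, as inferred from block numbers. With repeated values set to missing the interaction was 2.02 ± 0.40 (adjusted p = 0.0712), and leaving out the last slide gave 2.00 ± 0.41 (adjusted p = 0.230). Within array set 1 alone it was 1.97 ± 0.56 (adjusted p = 0.907), and within set 2 alone, which holds only those 2 Her2/Neu+ arrays, 3.06 ± 0.50 (adjusted p = 0.00361). The estimate stayed between 2.23 and 2.61 when any 1 array was left out, and the call held in 25 of the 30 such fits. It was lost without Her2/Neu+ array 114 or 119, without IFNAR1-/- array 44, and without WT array 54 or 56, with the adjusted p between 0.0502 and 0.0774.

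**Figure D2:**
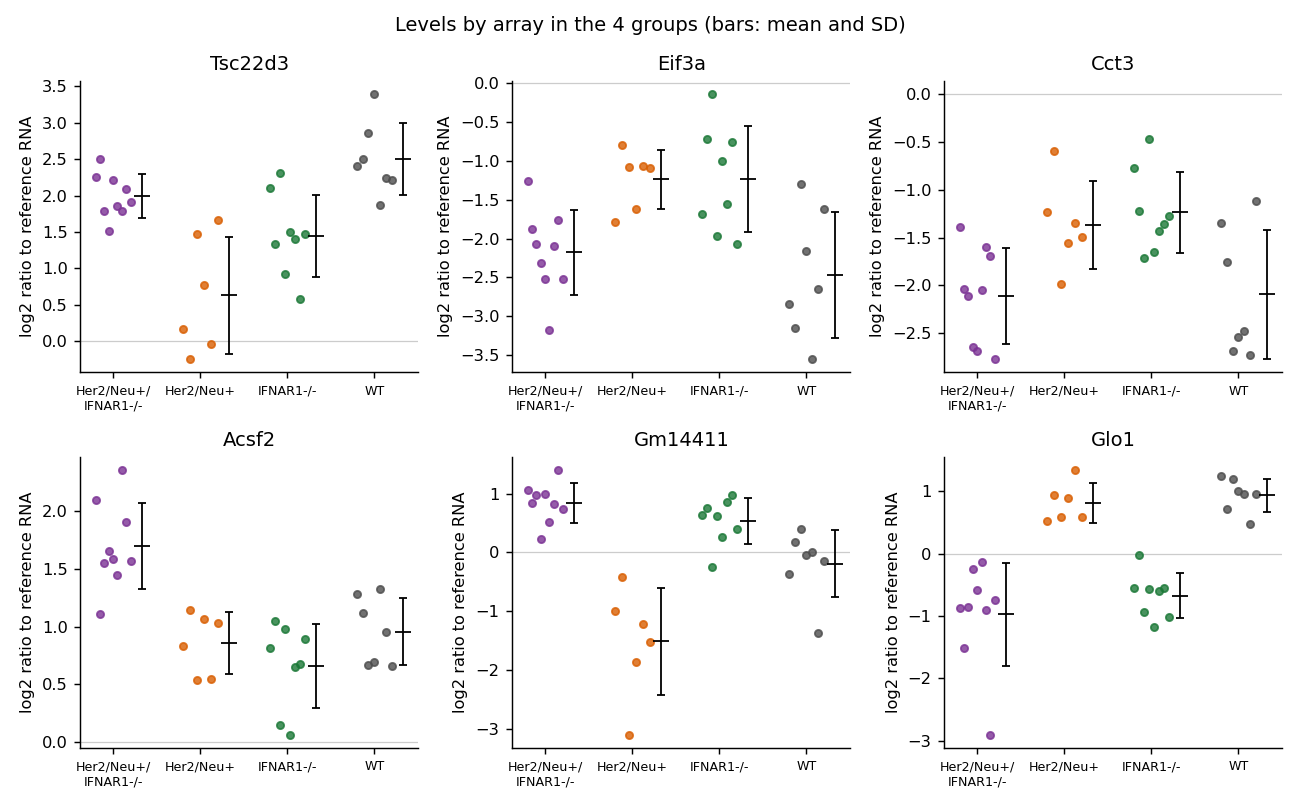
Points are the log2 ratios of gland over reference RNA on each array for 6 genes, by group, with the mean and SD as bars beside them. Tsc22d3 is highest in WT glands and lowest in Her2/Neu+ glands, Eif3a and Cct3 stand lowest in Her2/Neu+/IFNAR1-/- and WT glands, and Glo1 is low in both groups without the receptor.

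Glucocorticoids act through a nuclear receptor that binds palindromic elements near its target genes, and Tsc22d3 is among 12 listed genes that it is known to induce. All 12 were measured. Tsc22d3 was the 1 member that passed, while 4 members had an unadjusted p under 0.05, all positive, against 6.86% positive over all genes. The estimate was above 0 in 12 of 12 members, against 60.4% of all genes, and the median interaction was 0.86, against 0.18 over all genes. The list includes Tsc22d3, was chosen with earlier results of these data known, and its members share the same arrays. These counts are therefore a description. The members ranged from 0.20 (Sgk1) to 2.41 (Tsc22d3). After quantile normalization, with array weights and without the last slide the Sgk1 estimate was below 0, so 12 of 12 does not hold there. The median effect of receptor loss was 0.47 with the oncogene and -0.51 without it, and 8 of the 12 members were above 0 with and below 0 without it. The median interaction was 0.95 in array set 1 and 0.86 in set 2, 0.74 after quantile normalization, 0.88 without the last slide and 0.90 without Her2/Neu+ array 114.

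Mt2, a metallothionein that binds zinc and is induced by glucocorticoids, ran from -3.14 to -2.19 with a median of -2.45 in Her2/Neu+/IFNAR1-/- glands. It ran from -5.65 to -2.28 with a median of -2.84 in Her2/Neu+ glands, from -5.12 to -2.55 with a median of -3.04 in IFNAR1-/- glands, and from -3.08 to -1.50 with a median of -2.04 in WT glands. Its groups overlapped, and the interaction of 1.72 ± 0.58 did not pass (adjusted p = 0.483). Zbtb16, a zinc finger transcription factor, had an interaction of 2.14 ± 0.81 (adjusted p = 0.483). Its receptor loss effect was 2.01 ± 0.59 with the oncogene and -0.12 ± 0.55 without it, and its Her2/Neu+ arrays spanned -0.02 to 5.89.

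On each array, the mean of the 12 glucocorticoid targets after centring each gene was 0.09 ± 0.31 in Her2/Neu+/IFNAR1-/- (SD, n = 9), -0.51 ± 0.44 in Her2/Neu+ (n = 6), -0.06 ± 0.25 in IFNAR1-/- (n = 8) and 0.48 ± 0.50 in WT glands (n = 7). The order of the groups was that of Tsc22d3, except that Her2/Neu+/IFNAR1-/- and IFNAR1-/- glands lay closer together than their SDs.

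**Figure D3:**
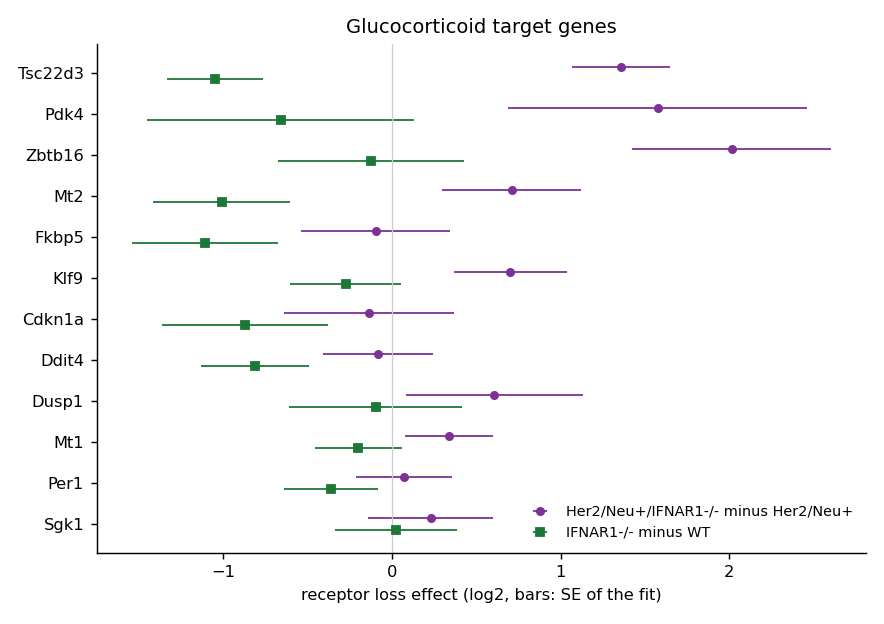
The effect of receptor loss is drawn for each of the 12 glucocorticoid target genes, with the oncogene as purple circles and without it as green squares, in log2 units with SE bars. The purple point lies right of the green one in all 12 genes, and the distance shrinks from Tsc22d3 at the top to Sgk1 at the bottom.

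Promoter sequences are shown for Tsc22d3, which carries the result, for Sgk1, the listed target whose window holds a full glucocorticoid element, and for Isg15, an interferon-stimulated gene. They are 300-base windows around a transcription start from RefSeq (GRCm38.p6), written from 5′ to 3′ on the gene's strand. Capitals mark the motif found: TGTTCT, the reverse complement of the half-site AGAACA, in Tsc22d3 (chrX:140600473-140600772, minus strand), the element of AGAACA and TGTTCT with 3 bases between them in Sgk1 (chr10:21993640-21993939, plus strand), and 3 overlapping matches of the interferon-stimulated response element core, GAAA and again GAAA with 2 bases between them, in Isg15 (chr4:156200769-156201068, minus strand).
Tsc22d3: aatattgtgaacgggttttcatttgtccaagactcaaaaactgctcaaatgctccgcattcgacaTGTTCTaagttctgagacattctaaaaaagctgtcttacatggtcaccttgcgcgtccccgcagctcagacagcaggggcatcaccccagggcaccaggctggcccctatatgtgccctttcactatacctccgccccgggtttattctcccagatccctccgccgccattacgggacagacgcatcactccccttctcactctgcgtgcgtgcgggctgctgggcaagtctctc
Sgk1: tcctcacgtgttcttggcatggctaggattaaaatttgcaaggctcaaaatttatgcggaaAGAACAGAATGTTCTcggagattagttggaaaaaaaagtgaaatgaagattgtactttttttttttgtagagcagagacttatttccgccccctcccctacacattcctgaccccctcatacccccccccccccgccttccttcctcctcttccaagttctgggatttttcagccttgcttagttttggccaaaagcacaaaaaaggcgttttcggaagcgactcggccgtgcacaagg
Isg15: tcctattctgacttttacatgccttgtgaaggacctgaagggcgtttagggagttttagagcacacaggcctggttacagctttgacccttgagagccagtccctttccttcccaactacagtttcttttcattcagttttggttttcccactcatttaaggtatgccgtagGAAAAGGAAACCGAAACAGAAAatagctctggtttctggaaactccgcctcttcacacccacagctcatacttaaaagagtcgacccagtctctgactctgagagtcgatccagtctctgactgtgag

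Both strands were searched. The full element was found in 3 of 32851 promoter windows (0.0091%), of which the Sgk1 window is 1, and that match contains the half-site on both strands. The half-site was found in 19.0% of all windows, and in 4 of 20 windows of 11 glucocorticoid targets. The window of Tsc22d3 shown is 1 of 3 for the gene, and its match begins 185 bases before the start. The interferon core was found in 3.44% of all windows and in 13 of 25 windows of the listed interferon-stimulated genes (52.0%). It was also found in 1 of 20 windows of the glucocorticoid targets, a window of Sgk1. A match describes these letters in this window and is not a site of binding. Sgk1, a kinase that glucocorticoids induce, had an interaction of 0.20 ± 0.52 (adjusted p = 0.906), and Isg15, a ubiquitin-like antiviral protein, had -0.18 ± 0.88 (adjusted p = 0.957). Sgk1 had the smallest interaction estimate of the 12 glucocorticoid targets, and its window shown is 1 of 6 for the gene. Whether a motif match goes with the interaction was not tested.

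Flywch2, a little studied gene with a FLYWCH zinc finger on chromosome 17, was the other gene past the threshold. Its values were between -0.09 and -0.01 on 5 Her2/Neu+/IFNAR1-/- arrays, and -0.03, -0.03 and 0.93 on 3 Her2/Neu+ arrays. They were between 1.76 and 4.07 on 6 IFNAR1-/- arrays, and between -0.03 and 0.13 on 5 WT arrays, with no value on the other arrays. All values of the Her2/Neu+/IFNAR1-/- and WT arrays are repeated values near 0. The interaction of -3.06 ± 0.48 (adjusted p = 0.0282) thus rests mainly on the IFNAR1-/- group, beside which only 1 Her2/Neu+ value is not repeated, and its size was not measured. With slide as a random block the call was lost (adjusted p = 0.101), and Flywch2 passed in 6 of the 15 alternatives that could test it. It missed the threshold with array weights (limma adjusted p = 0.0620), a variance trend (0.0587) and among the more variable genes (0.412). The call was also lost with array set (0.0509), block number (0.0754) or the B cell mean (0.0587) as a covariate. With repeated values set to missing it could not be tested. Flywch2 passed in 13 of the 27 fits that left out 1 array and could still test it. Most of these passing fits left out an array without a Flywch2 value, so the estimate stayed at -3.06. Of the fits that removed a Flywch2 value, only those without IFNAR1-/- array 39 or 47 passed (limma adjusted p = 0.00768 and 0.00976).

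Of the genes with measured values in every group, the 8 with the smallest p in each direction are described next, and other than Tsc22d3 none of them passed. The adjusted p of these 15 genes lay between 0.243 and 0.432, and their largest unadjusted p was 0.00157. Among all 16, the 2 receptor loss effects had opposite signs in 13, against 51.9% of all genes, and because the genes were picked for a large interaction this share is a description.

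Acsf2, a mitochondrial acyl-CoA synthetase, had values of 1.11, 1.59 and 2.36 (lowest, median and highest) in Her2/Neu+/IFNAR1-/- glands and 0.54, 0.93 and 1.15 in Her2/Neu+ glands. It had 0.06, 0.74 and 1.05 in IFNAR1-/- glands and 0.66, 0.96 and 1.32 in WT glands. The group with both alterations stood above the rest, with 8 of 9 arrays above all Her2/Neu+ arrays. The interaction was 1.14 ± 0.28 (adjusted p = 0.425), and the gene rose in Her2/Neu+/IFNAR1-/- against IFNAR1-/- glands, by 1.04 ± 0.18 (adjusted p = 0.00564). Ldlrad3, a receptor with LDL-receptor type repeats, had an interaction of 1.51 ± 0.38, with effects of 1.06 with and -0.45 without the oncogene.

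Eif4a2, an RNA helicase of translation initiation, showed an interaction of 1.15 ± 0.31. All 8 of its IFNAR1-/- arrays, at 0.19 to 1.02, lay below all 7 WT arrays, at 1.08 to 1.69, while the Her2/Neu+/IFNAR1-/- and Her2/Neu+ arrays overlapped. In 27 of 11463 genes (0.236%) the IFNAR1-/- and WT arrays did not overlap. Mndal, an interferon-inducible gene of the Ifi200 family on chromosome 1, showed the same layout, with IFNAR1-/- arrays at -0.34 to 0.98 and WT arrays at 1.41 to 2.57. The Mndal effect of receptor loss was 0.49 ± 0.39 with the oncogene and -1.56 ± 0.38 without it, and its interaction was 2.04 ± 0.55. Against IFNAR1-/- glands, Eif4a2 rose by 0.88 (adjusted p = 0.0302) and Mndal by 1.87 (adjusted p = 0.0107) in Her2/Neu+/IFNAR1-/- glands.

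The remaining 3 genes on the positive side, Gm14411, Gm14288 and Gm14393, are predicted genes of 1 region of chromosome 2, between 175057954 and 177127711. Such neighbouring predicted genes can share sequence, so their probes may read the same transcripts and they are not counted here as independent genes. Unlike in the other 5, the estimate for receptor loss was above 0 both with and without the oncogene. Gm14411 had values of 0.22, 0.84 and 1.40 in Her2/Neu+/IFNAR1-/- glands and -3.10, -1.37 and -0.41 in Her2/Neu+ glands, with no overlap, as in 15 of all genes (0.131%). In IFNAR1-/- glands it had -0.25, 0.63 and 0.97, and in WT glands -1.37, -0.04 and 0.40, with overlap. With the oncogene all 3 rose on receptor loss, Gm14411 by 2.36 ± 0.30 (adjusted p = 5.45e-05), Gm14288 by 1.75 ± 0.21 (adjusted p = 5.45e-05) and Gm14393 by 2.63 ± 0.38 (adjusted p = 0.000405). Without it the differences were 0.62 to 0.72 and did not pass (adjusted p between 0.657 and 0.770). The interactions of 1.64 ± 0.42, 1.13 ± 0.30 and 1.97 ± 0.53 did not pass (adjusted p = 0.425 for each).

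On the negative side, all 8 genes had estimates below 0 with the oncogene and above 0 without it. Eif3a, the largest subunit of a translation initiation factor, had values of -3.17, -2.10 and -1.25 in Her2/Neu+/IFNAR1-/- glands and -1.79, -1.09 and -0.79 in Her2/Neu+ glands. In IFNAR1-/- glands the values were -2.07, -1.27 and -0.14, and in WT glands -3.55, -2.64 and -1.30. Her2/Neu+ and IFNAR1-/- glands thus had the same mean of -1.24, against -2.18 in Her2/Neu+/IFNAR1-/- and -2.47 in WT glands, and the groups overlapped. Of the Her2/Neu+/IFNAR1-/- values, 55.6% were measured and the rest are repeated. The interaction was -2.17 ± 0.47, with the smallest adjusted p among the genes that did not pass (0.243).

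Cct3, a subunit of the TRiC chaperonin that folds actin and tubulin, showed the same layout, with an interaction of -1.60 ± 0.39. Ssr2, a subunit of the translocon-associated complex of the endoplasmic reticulum, had -1.72 ± 0.49. Alg5, an enzyme that primes lipid-linked sugars for N-glycosylation, had -1.28 ± 0.36, and Lrpap1, a chaperone of LDL-receptor family proteins, had -0.77 ± 0.22. Fndc3b, a membrane protein of the endoplasmic reticulum, had -1.91 ± 0.47. Atp6v0d1, a subunit of the proton pump of lysosomes, had -1.70 ± 0.48, and Lims1, an adaptor of integrin adhesions, had -1.21 ± 0.35. Alg5, Lrpap1 and Atp6v0d1 fell in Her2/Neu+/IFNAR1-/- against IFNAR1-/- glands (adjusted p = 0.0434, 0.0436 and 0.0424), by 0.93, 0.56 and 1.27 on the log2 scale.

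Interferon-stimulated genes were the group where loss of the receptor would first be looked for. Of 38 listed, 32 were measured, and 0 passed the limma test of the interaction, with 1 positive and 1 negative at an unadjusted p under 0.05. The median effect of receptor loss was -0.71 with the oncogene and -0.54 without it, against 0.11 and -0.08 over all genes. Of the 32 members, 23 were below 0 in both, against 2690 of all 11463 genes. The median interaction was -0.21, and 15 members were above 0 and 17 below. Its sign was not settled: it was -0.50 in array set 1 and 0.73 in set 2, and 0.20 with repeated values set to missing. Isg15 had values of -1.74, -0.01 and 3.28 in Her2/Neu+/IFNAR1-/- glands and -0.78, 1.40 and 3.52 in Her2/Neu+ glands. In IFNAR1-/- glands it had -2.24, -1.53 and -1.36, all with 1 of the 2 probes repeated, and in WT glands -1.57, -0.83 and -0.11, so both pairs overlapped and the glands with the oncogene spread far more widely.

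The 3 members with the smallest p pointed in both directions. Dhx58, an RNA sensor of the RIG-I family, had an interaction of -1.60 ± 0.72 (adjusted p = 0.505), but most of its values in 3 of the groups are repeated values near 0. Ifi27l2a had 1.5 ± 0.72 (adjusted p = 0.517), and its Her2/Neu+ array 114, at 0.18, lay far below the other Her2/Neu+ arrays, the next at 4.15. Parp14, an ADP-ribosyltransferase, had 1.27 ± 0.71 (adjusted p = 0.544), and array 114 was again the lowest Her2/Neu+ value, at -0.02.

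Interferon gamma acts through another receptor, and 12 of 18 listed genes that respond strongly to it were measured. Of these, 0 passed and 0 had an unadjusted p under 0.05, while 8 lay above the all-gene median and the median interaction was 0.60. The median effect of receptor loss was -0.53 with the oncogene and -0.97 without it. Ifi47, an interferon-inducible GTPase, had values of -0.02, 2.64 and 3.79 in Her2/Neu+/IFNAR1-/- glands and -0.05, 2.64 and 4.03 in Her2/Neu+ glands, the same median. It had -1.15, 0.25 and 1.95 in IFNAR1-/- glands and 1.58, 2.79 and 3.91 in WT glands, where 6 of the 8 IFNAR1-/- arrays lay below all WT arrays. Its interaction was 1.76 ± 0.94 (adjusted p = 0.533), and that of Gbp4, a guanylate-binding protein, 2.31 ± 1.34 (adjusted p = 0.555).

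The targeted gene itself showed no interaction that could be resolved. Ifnar1 had values of -0.04, 0.65 and 3.20 in Her2/Neu+/IFNAR1-/- glands, -0.03, 0.14 and 3.66 in Her2/Neu+ glands, -1.03, -0.06 and 1.55 in IFNAR1-/- glands, and -0.47, 0.06 and 2.32 in WT glands. Whether its 2 probes lie in the deleted part is not given in the sources used here, so the values check nothing about the genotypes. The interaction was 0.49 ± 0.81, with a 95% interval of -1.16 to 2.15. For Ifnar2, the other receptor chain, the interval was -0.96 to 0.95. For Erbb2, whose 10 mouse probes may not read the transgene, the interaction was -0.45 ± 0.37 with an interval of -1.21 to 0.30.

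Glo1, which detoxifies methylglyoxal, was lower without the receptor in both backgrounds. It ran from -2.90 to -0.12 in Her2/Neu+/IFNAR1-/- and from 0.52 to 1.35 in Her2/Neu+ glands, and from -1.17 to -0.02 in IFNAR1-/- and from 0.48 to 1.25 in WT glands, with no overlap within either pair. Glo1 fell by 1.78 ± 0.29 with the oncogene (adjusted p = 0.00173) and by 1.61 ± 0.28 without it (adjusted p = 0.0113). The call without the oncogene was lost with slide as a random block (adjusted p = 0.0515), after quantile normalization (0.0957), with the B cell mean as a covariate (0.0557), among the more variable genes (0.0834) and in either array set alone. The call with the oncogene was lost in array set 1 alone (0.174). The interaction was -0.17 ± 0.40, and its 95% interval of -0.99 to 0.65 bounds how far the 2 effects differ.

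The respiratory chain transfers electrons from food to oxygen in mitochondria and drives the ATP synthase. In complex I, 0 of 36 measured subunits passed in limma and 5 had an unadjusted p under 0.05, all positive. In complexes II to V, 0 of 37 passed and 8 had an unadjusted p under 0.05, all positive. Over all genes, 6.86% were positive at that p. The median interactions were 0.50 and 0.61, and the estimate lay above the all-gene median in 28 of 36 and in 30 of 37 subunits. The median effect of receptor loss was 0.14 with the oncogene and -0.39 without it in complex I, and 0.12 and -0.50 in complexes II to V. Without the last slide the median of complexes II to V was 0.26, while the all-gene median was 0.20. Without Her2/Neu+ array 114 the medians were 0.35 for complex I and 0.43 for complexes II to V.

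Sdhd, a membrane anchor of succinate dehydrogenase, had values of -0.14, 0.67 and 1.53 in Her2/Neu+/IFNAR1-/- glands and -1.69, 0.05 and 1.70 in Her2/Neu+ glands. In IFNAR1-/- glands it had -0.36, 0.14 and 1.65, and in WT glands 0.26, 1.14 and 1.88. The Her2/Neu+ arrays enclosed the whole range of Her2/Neu+/IFNAR1-/- arrays, and the interaction of 1.47 ± 0.51 did not pass (adjusted p = 0.483). Uqcrc1, a core protein of complex III, had 1.33 ± 0.54, and Atp5j2, a subunit of the ATP synthase, had 0.73 ± 0.29. The complex I subunits Ndufs7 and Ndufb3 had 1.07 ± 0.41 and 1.17 ± 0.50.

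Lists for the burning and the making of fat both had medians above that of all genes. Among enzymes of fatty acid oxidation, 0 of 17 passed and the median was 0.67. Of the 17, 4 had an unadjusted p under 0.05, all positive, against 6.86% positive over all genes. However, 10 were above 0 and 7 below, a split close to the 60.4% above 0 over all genes, and without Her2/Neu+ array 114 the median was 0.41. The 3 with the smallest p were Etfb (1.21 ± 0.45), Acadvl (1.37 ± 0.55) and Hadhb (1.22 ± 0.48), which pass electrons to the chain or split fatty acids, and each had an adjusted p of 0.483. Among enzymes of fat synthesis, 0 of 19 passed, 2 had an unadjusted p under 0.05, both positive, and the median was 0.59, or 0.53 without that array.

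Agpat2, an acyltransferase of triglyceride synthesis, had values of 2.81, 4.27 and 5.66 in Her2/Neu+/IFNAR1-/- glands and -0.03, 1.38 and 4.40 in Her2/Neu+ glands. It had 3.26, 4.40 and 5.39 in IFNAR1-/- glands and 3.35, 3.78 and 4.29 in WT glands. The Her2/Neu+ group had the lowest median and spread widely, so that its highest array reached into the other groups, and 2 of its 6 values are repeated. Agpat2 rose on receptor loss with the oncogene, by 2.84 ± 0.53 (adjusted p = 0.0155), while the effect without it was 0.56 ± 0.52 (adjusted p = 0.862) and the interaction of 2.28 ± 0.74 did not pass (adjusted p = 0.456). Lpl, the lipase that loads fat cells, had an interaction of 0.94 ± 0.34 (adjusted p = 0.483), and 6 of 14 white adipocyte genes had measured values in every group. The median of that list, 0.18, therefore says little, since several of its genes stand at the limit of 6, as Adipoq does on all 30 arrays.

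**Figure D4:**
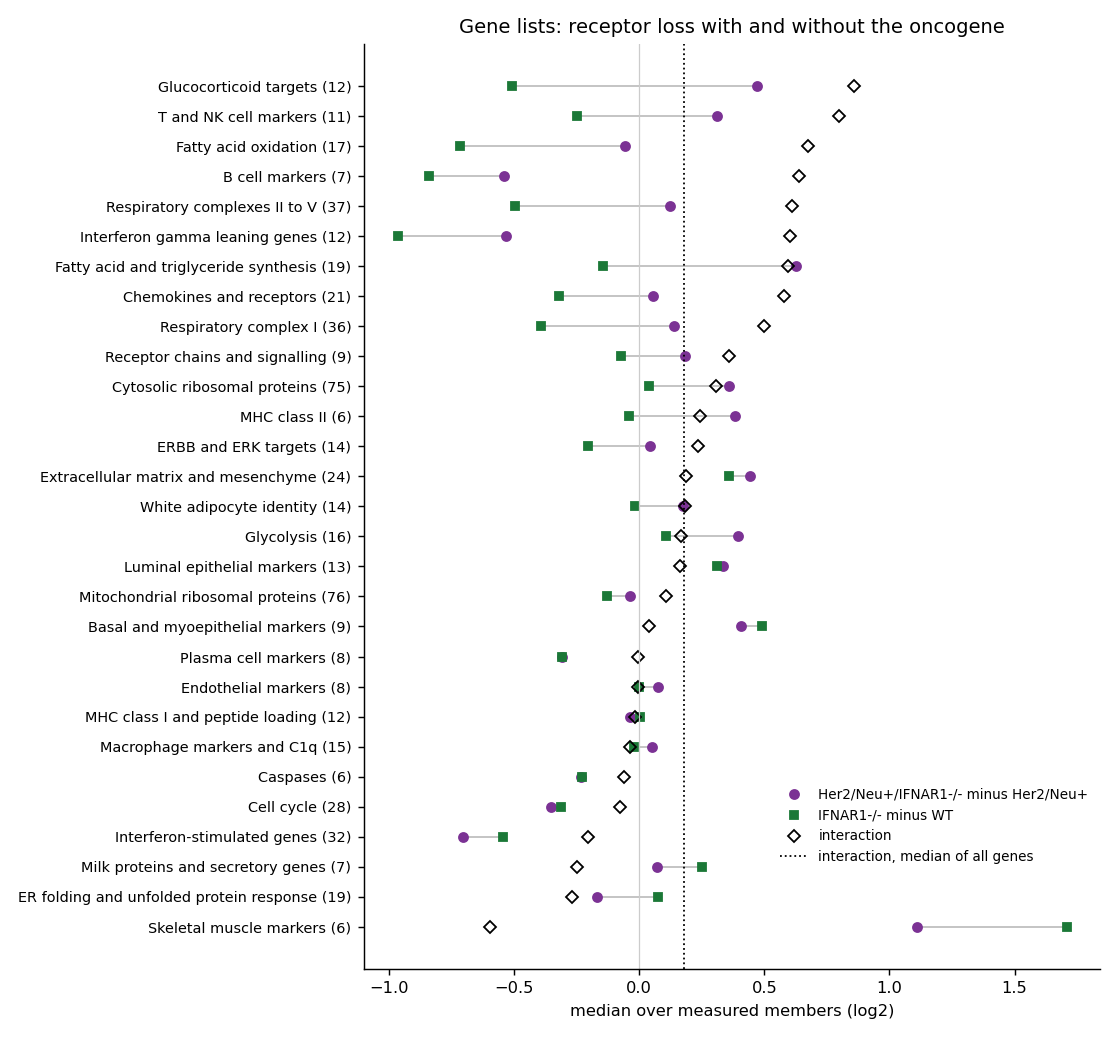
For each gene list with at least 5 measured members (number in brackets), the median effect of receptor loss with the oncogene (purple circles), without it (green squares) and the median interaction (open diamonds) are shown in log2 units. The dotted line is the all-gene median interaction of 0.18, and glucocorticoid targets lie farthest to its right at 0.86 while skeletal muscle markers, whose median is not stable to leaving out 1 array, lie at -0.60.

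Among 75 cytosolic ribosomal proteins, 0 passed and 8 had an unadjusted p under 0.05, all positive, where 6.86% of all genes were positive at that p. Their median was 0.31, but it was 0.02 after quantile normalization, -0.07 in array set 1 and 0.97 in set 2. Rpl37a had the smallest p, with 1.09 ± 0.32 (adjusted p = 0.432). ER folding genes, which handle secreted proteins, leaned the other way: 0 of 19 passed, and the median was -0.27. Of the 19, 14 were below 0, against 4526 of all 11463 genes. At an unadjusted p under 0.05, 1 was positive and 2 negative, against 6.86% and 2.77% over all genes. The median was -0.15 without Her2/Neu+ array 114 and -0.18 without IFNAR1-/- arrays 41, 42 and 44. Xbp1, the transcription factor of the unfolded protein response, had values of -0.12, 0.63 and 2.00 in Her2/Neu+/IFNAR1-/- glands and 1.26, 1.5 and 2.42 in Her2/Neu+ glands. It had -0.32, 0.11 and 0.27 in IFNAR1-/- glands and -0.44, -0.03 and 0.42 in WT glands. The gene rose in Her2/Neu+ against WT glands, by 1.65 (adjusted p = 0.00466). Receptor loss had an effect of -0.88 ± 0.25 with the oncogene and 0.04 ± 0.25 without it, and the interaction of -0.92 ± 0.36 did not pass (adjusted p = 0.483). Pdia4, a disulfide isomerase, had -1.43 ± 0.60 (adjusted p = 0.50).

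Milk and secretory genes were sparsely measured, 7 of 15, with 0 past the threshold and a median of -0.25. At an unadjusted p under 0.05, 1 was positive and 1 negative, against 6.86% and 2.77% over all genes. The sign of that median was not settled, as it ran from -0.43 to 0.09 when 1 array was left out. Btn1a1, the butyrophilin of the milk fat globule, had an interaction of 1.07 ± 0.33 (adjusted p = 0.432). Lalba, the milk protein alpha-lactalbumin, stood at the limit of 6 on all 7 Her2/Neu+/IFNAR1-/- arrays with a value and between 5.57 and 6 in Her2/Neu+ glands, so its response to receptor loss with the oncogene could not be read. Cel, a lipase found in milk, had -2.56 ± 1.16 (adjusted p = 0.505), on mostly repeated values and 1 Her2/Neu+ array, 114, at the limit.

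Among markers of T and NK cells, 0 of 11 measured passed. At an unadjusted p under 0.05 there was 1, positive, against 6.86% positive over all genes. Of the 11, 9 lay above the all-gene median of 0.18, and the median interaction was 0.80. Cd3g, a chain of the T cell receptor complex, had values of -0.18, -0.01 and 3.56 in Her2/Neu+/IFNAR1-/- glands and -0.05, -0.01 and 1.75 in Her2/Neu+ glands. In IFNAR1-/- glands it had -0.98, -0.32 and 0.69, and in WT glands -0.02, 1.77 and 2.64. The difference lay in the pair without the oncogene, with an effect of -1.90 ± 0.54 (adjusted p = 0.534) against 0.51 ± 0.55 with it. Most values of the other 3 groups are repeated, and the interaction of 2.41 ± 0.78 did not pass (adjusted p = 0.456).

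Of 21 measured chemokines and receptors, 0 passed, 3 had an unadjusted p under 0.05, all positive, 15 lay above the all-gene median and the median was 0.58. Over all genes, 6.86% were positive and 2.77% negative at that p. Of the 21, 10 had measured values in every group. Cxcl5, which attracts neutrophils, had 2.40 ± 1.06, and Ccl11, the eosinophil attractant eotaxin, had 2.21 ± 1.05, with several arrays at the limit. Without Her2/Neu+ array 113 the Ccl11 interaction was 1.12. Macrophage markers had a median of -0.04, with 2 positive and 2 negative of 15 at an unadjusted p under 0.05. C1qc, a chain of the first complement component, had 0.96 ± 0.35 (adjusted p = 0.483). In MHC class II, H2-DMa, which loads peptides onto these molecules, had -2.41 ± 0.94 (adjusted p = 0.483) in a list with a median of 0.24. For H2-DMa, Her2/Neu+/IFNAR1-/- array 104 and WT array 60 stood apart, at 3.35 and 3.37. The sign of the list median was not settled, at -0.20 in array set 1 and 0.68 in set 2. Cell cycle genes had a median of -0.08, or 0.12 without Her2/Neu+ array 114, with 5 positive and 2 negative of 28 at an unadjusted p under 0.05. The cyclin Ccnb2 had -1.69 ± 0.63 (adjusted p = 0.483). Lamb1, a laminin chain, had 1.97 ± 0.71 (adjusted p = 0.483) in a matrix list with a median of 0.19, or 0.03 without array 114.

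In the lists not yet named, 0 members passed in limma. The median interaction was 0.36 for receptor chains and signalling, -0.02 for MHC class I, 0.24 for ERBB and ERK targets, 0.11 for mitochondrial ribosomal proteins and 0.17 for glycolysis. It was 0.04 for basal and 0.16 for luminal markers, -0.01 for plasma cell markers, -0.06 for caspases and -0.01 for endothelial markers. It was 0.64 for 7 B cell markers, of which 2 had measured values in every group, and ran from 0.15 to 1.09 when 1 array was left out. It was 0.46 for 4 genes of brown and beige fat, of which 1 was so measured, with a range of 0.17 to 0.63, and -0.59 for 2 keratinocyte genes. Without Her2/Neu+ array 114 the median was 1.05 for B cell, 0.55 for plasma cell and -0.18 for luminal markers. Leaving out 1 array turned the sign of the medians of MHC class I, basal, luminal, plasma cell, caspase and endothelial lists, and also of the macrophage and cell cycle lists. Other settings turned the sign for further lists. The median was -0.03 for receptor chains and -0.10 for mitochondrial ribosomal proteins in array set 2. After quantile normalization it was -0.02 for ERBB and ERK targets and -0.26 for glycolysis. At an unadjusted p under 0.05 there were 3 of 76 mitochondrial ribosomal proteins, 1 of 16 glycolysis genes and 1 of 8 endothelial markers, all positive. Of 8 plasma cell markers, 1 was positive and 1 negative at that p. Over all genes, 6.86% were positive and 2.77% negative.

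Skeletal muscle can come along with a dissected gland, and its markers were high on a few arrays of the groups without the receptor. All 6 measured muscle markers had estimates below 0, with 0 past the threshold in limma and 0 at an unadjusted p under 0.05. None of the 6 had measured values in every group. Their median of -0.60 ran from -1.09 to 0.0062 when 1 array was left out, and was 1.70 without IFNAR1-/- arrays 41, 42 and 44. The list mean ran from -0.75 to 3.57 in Her2/Neu+/IFNAR1-/- glands, from -1.53 to 0.24 in Her2/Neu+ glands, from -1.52 to 4.49 in IFNAR1-/- glands and from -1.45 to -0.53 in WT glands. It was highest on IFNAR1-/- arrays 41, 42 and 44, at 3.77, 4.11 and 4.49. Acta1, the actin of muscle fibres, had values of -0.41, -0.01 and 3.98 in Her2/Neu+/IFNAR1-/-, -2.92, -0.51 and 3.60 in Her2/Neu+, -0.35, 0.80 and 5.72 in IFNAR1-/-, and -3.27, -1.05 and -0.31 in WT glands. Without those 3 arrays the Tsc22d3 interaction was 2.45 ± 0.43 (adjusted p = 0.0603), and with the muscle mean as a covariate Tsc22d3 passed (adjusted p = 0.0406). Flywch2 lost its call in both fits (adjusted p = 0.0988 and 0.0551), while Glo1 passed in both for both receptor loss effects.

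**Figure D5:**
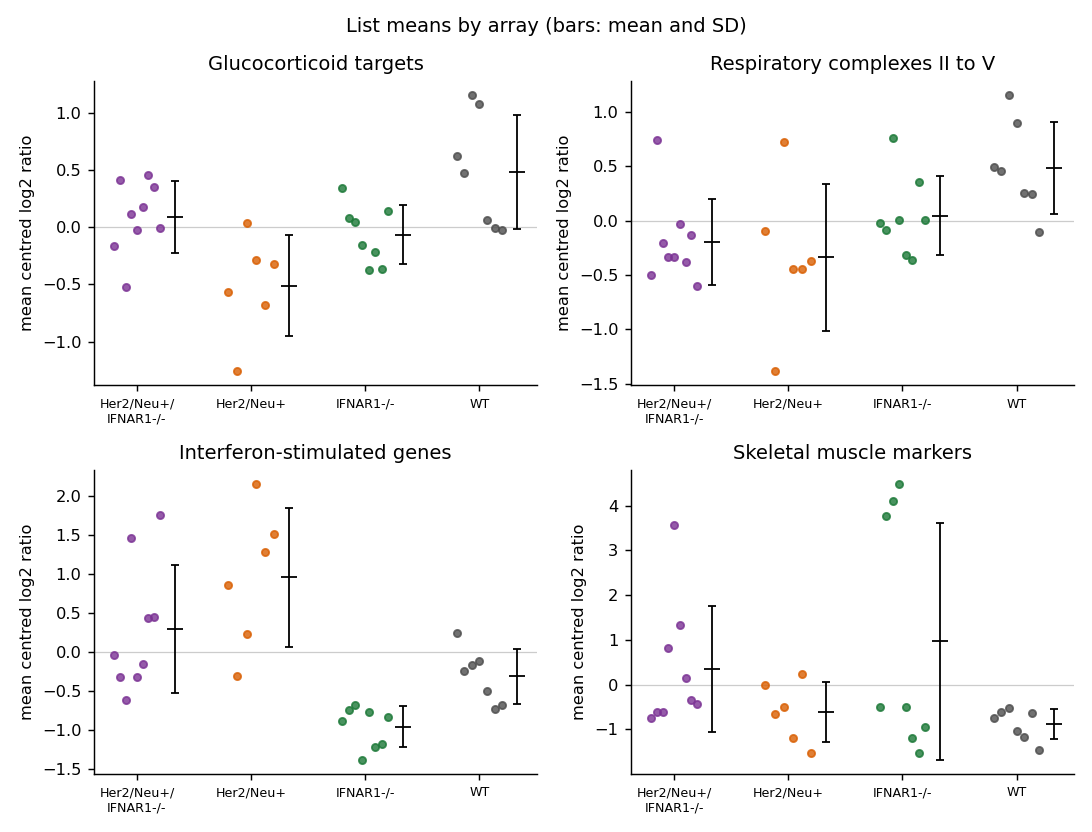
Each point is the mean of a gene list on 1 array after centring each gene (log2 units), by group, with the mean and SD as bars. Glucocorticoid targets are lowest in Her2/Neu+ and highest in WT glands, interferon-stimulated genes are lowest in IFNAR1-/- glands, and the muscle panel shows 3 IFNAR1-/- arrays above 3.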

How the data were processed

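RNA of 30 inguinal mammary glands (Cy5) was hybridised against a universal mouse reference RNA (Cy3), per the labels. The deposited values are log2 ratios of gland over reference. The dyes are named in the labels, while the log base is an inference from the range, 6 on either side of 0 (64-fold). Scanner settings, background correction, normalization and the rule for blanks are not given in the sources used here.

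Of 20896 probes, 17376 carry a symbol. Those read on 50% or more of the arrays in each of the groups (16247) were averaged per symbol to 11463 genes, of which 2606 had more than 1 probe and 11418 matched RefSeq (GRCm38.p6). Missing values stayed missing. A mean per group was fitted with limma 3.58.1 in R 4.3.3 (lmFit, eBayes, 26 residual degrees of freedom), two-sided, with Benjamini-Hochberg adjustment over all genes and a threshold of 0.05. The script was tested on simulated data. Intervals are 95%.

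A value is called repeated where it occurs more than once on its array. The 8 slides and 2 array sets of 15 were inferred from block numbers, since the labels name none. No slide held both groups of a receptor loss effect, so within an effect slide and group cannot be told apart, and slide was fitted as a random block (correlation within slides 0.0956).

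The comparison, gene lists and tests were chosen with earlier results of these data known, so lists carry no test. Genes named are up to 12 each way past the threshold, filled up to 8 each way by smallest p, where at least 50% of the values in every group were neither repeated nor at the limit. To these come up to 3 members of each list by smallest p, and Ifnar1, Ifnar2, Erbb2, Glo1, Lalba and Xbp1. Of the list members only some are named, a choice made after their values were seen, as were Sgk1 and Isg15. Alternatives were other scalings, filters, probe rules, variance models, slide and set terms, marker covariates and left out arrays.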

Additional observations from a re-analysis of the deposited data

Results flagged for a closer look

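The interactions of Tsc22d3 (2.41) and Flywch2 (-3.06) are listed because the test of the difference between the receptor loss effects passed. In addition, 30 of 230 groups of values (13.0%) held 1 array far from the others by Dixon's test, where chance gives about 1 in 20.

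Her2/Neu+ array 114, which also had the highest B cell and plasma cell marker means of its group, stood apart in 6 genes. It was high for Ifnar1 at 3.66 and Cel at 6, and low for Ifi27l2a at 0.18, Parp14 at -0.024, C1qc at 3.14 and Lpl at 2.72. IFNAR1-/- array 41, on the same inferred slide, was low for Ifnar2 at -1.03, Parp14 at -0.62, Mt2 at -5.12, Etfb at 1.53 and Lamb1 at -0.92. WT array 60 stood apart for Flywch2 at 0.13, Dhx58 at -0.43, Ifi27l2a at 4.56, Zbtb16 at 3.60 and H2-DMa at 3.37.

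Among Her2/Neu+/IFNAR1-/- arrays, array 108 was high for Eif4a2 at 2.37, array 109 low for Glo1 at -2.90 and array 110 high for Dhx58 at 1.98 and low for Lpl at 4.28. Array 103 was high for Atp5j2 at 0.56 and for the mean of respiratory complexes II to V at 0.75. Array 104 was high for H2-DMa at 3.35 and array 106 for Acta1 at 3.98. Her2/Neu+ array 115 was the only one below the limit for Lalba, at 5.57. IFNAR1-/- array 44 was high for Dhx58 at 2.19 and array 42 for Pdia4 at 1.89. WT array 59 was low for Gm14411 at -1.37 and Atp6v0d1 at -1.35, and array 57 for Parp14 at 1.19.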

How the results depend on the processing

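The count of 2 genes past the threshold was also 2 under quantile normalization, median centring, the probe with the largest SD, robust eBayes and an adjusted p under 0.10, and 3 with a value on at least 2 arrays of every group. It was 0 with repeated values missing (514 positive and 194 negative at an unadjusted p under 0.05 in limma), among the more variable genes by SD (303 and 145), with array weights (1063 and 310), a variance trend (773 and 322) or slide as a random block (469 and 188). It was 0 in array set 1 alone (243 and 186), without IFNAR1-/- arrays 41, 42 and 44 (771 and 265), and at an adjusted p under 0.01. It was 1, positive, for probes with a value on all arrays and with array set, block number, B cell mean or muscle mean as a covariate. Without the last slide it was also 1, but negative. That gene was neither Tsc22d3, which did not pass there (limma adjusted p = 0.230), nor Flywch2, which was not tested there. It was 486 (384 positive, 102 negative) in array set 2 alone, with its 2 Her2/Neu+ arrays. Chosen after seeing the data, genes with measured values in every group gave 1 and single probes 3. Leaving out 1 array gave 0 to 2, with 0 without Her2/Neu+ array 114 or 119, IFNAR1-/- array 44 or WT array 54 or 56. The cause was not tested. Among the named genes, the sign turned for the following, none of which passed the interaction test. Interaction of Ifnar2 was 0.0094 with slide as a block, 0.00026 with array set, 0.23 in set 1 and 0.064 with the B cell mean (-0.35 to 0.21 without 1 array). Interaction of Erbb2 was 1.41 for the probe with the largest SD. Interaction of Glo1 was 0.023 with weights and 0.086 without the last slide (-0.28 to 0.070 without 1 array). Interaction of Sgk1 was -0.30 under quantile normalization, -0.28 with weights and -0.39 without the last slide (-0.098 to 0.40 without 1 array). Interaction of Isg15 was 0.0086 with repeated values missing and for the probe with the largest SD, and 0.74 in set 2 (-0.62 to 0.24 without 1 array). No paired analysis was possible because the groups share no replicate numbers. Levels at the limit of 6 bound what can be read for Lalba.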
